A study of Mus musculus with 35 samples.

Results

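Atp6v0c, Atp6v0c-ps2, Gm9825, Gm13443, Gm10036, Gm6969, Rbpj-ps3 and Nxpe4 are 8 of the 54532 genes counted in mouse lung RNA, and they were chosen because their counts differ strongly between lungs of Cav1-KO and Control mice with either oxygen level. That choice used the Cav1-KO against Control values and the state of the same genes in Cav1-RC, so both are given here as a description without a test. It set no numeric limit. Of the log2 fold changes of the 8 genes in the 4 Cav1-KO against Control comparisons, the smallest in size was that of Atp6v0c in hypoxic males, which fell by 1.05. The deposited annotation types 5 of the 8 as processed pseudogenes and 3, Atp6v0c, Nxpe4 and Gm10036, as protein coding.

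Whole lungs came from adult mice of at least 3 months, kept for 6 weeks in room air (normoxia) or at 10% oxygen (hypoxia). Control mice were wild type of the mixed B6/129SJ2 background. Cav1-KO mice carry the Cav1tm1Mls/J allele, which removes the membrane coat protein caveolin-1 from every cell, and Cav1-RC mice carry a Cav1 knockout with Cav1 put back in the endothelium. Control and Cav1-KO mice were bought from Jackson Labs and Cav1-RC mice came from a laboratory at Yale University, so an effect of the Cav1 allele cannot be told apart from a difference between these breeding lines. Each of the 12 groups of genotype, sex and oxygen level had 3 libraries, except the normoxic females of Cav1-KO and of Cav1-RC, with 2 each, giving 34 libraries with 12425535 to 33343006 counts on genes (median 18015172.5). A further library, whose genotype label is marked as uncertain, entered no comparison. Nothing in the labels says more of the replicates than that they are separate samples, so the p-values below measure the spread between these libraries.

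A processed pseudogene is a copy of a messenger RNA that was turned back into DNA and put into the genome at another place, so it lacks the introns of its source gene. Such retrocopies are often transcribed weakly or not at all, and where the copy is young its sequence is nearly that of its source. A short read from the shared stretch then cannot always be assigned to one of the pair. Inbred mouse strains differ in which young retrocopies they carry and in small changes within them, and the genome used for counting is that of a single strain, C57BL/6. A mutant line made in one strain and bred to another keeps stretches of the first strain's genome, usually around the mutated gene. Which strain's form of each gene these libraries carried was not tested.

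A match of the transcripts gave each of the 6 retrocopies, Gm10036 included, a source gene. Atp6v0c-ps2 (chr6:37806086-37806550, plus strand, mm10) matched Atp6v0c on chromosome 17, which encodes the membrane subunit c that forms the proton-carrying ring of the V-ATPase, the pump that acidifies lysosomes. Gm9825 (chr6:7982541-7983383, minus) matched Rnps1 on chromosome 17, an RNA-binding protein of splicing and of the exon junction complex. Gm13443 (chr2:35340409-35340963, plus) matched Glo1 on chromosome 17, the glyoxalase that detoxifies methylglyoxal. Gm6969 (chr12:24638669-24639010, minus) matched Cox7a2l on chromosome 17, a mitochondrial protein of respiratory chain supercomplexes. Rbpj-ps3 (chr6:46529354-46530794, minus) matched Rbpj on chromosome 5, the DNA-binding factor of the Notch pathway, and lies inside Cntnap2, a gene of the other strand that had at most 4 counts in any library. Gm10036 matched Rpl11 on chromosome 4, a protein of the large ribosomal subunit, and GENCODE vM21 types it as a processed pseudogene. The source genes of 4 of the 6 copies lie on chromosome 17. The 3 copies on chromosome 6 lie on the chromosome of Cav1 itself, at 9.32 Mb (Gm9825), 20.5 Mb (Atp6v0c-ps2) and 29.2 Mb (Rbpj-ps3) from it.

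The copies differ from their source transcripts at very few bases, and these are the bases on which the assignment of a read rests. They are therefore shown for 4 pairs, each with up to 50 bases on both sides. Both are read from their GENCODE vM21 transcripts, 5′ to 3′, with the differing bases in capitals, and the mm10 position is that of the copy. Substitutions give the source base, the position counted from 1 at the 5′ end of the copy, and the base of the copy. Atp6v0c-ps2 has a single one, T111C, over 465 aligned bases (99.785% identity), shown at chr6:37806146-37806246, plus strand.
Atp6v0c-ps2: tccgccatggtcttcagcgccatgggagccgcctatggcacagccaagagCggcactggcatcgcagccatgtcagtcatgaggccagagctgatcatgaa
Atp6v0c: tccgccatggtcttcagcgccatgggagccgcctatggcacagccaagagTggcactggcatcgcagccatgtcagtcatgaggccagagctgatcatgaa
Gm9825 has C171A, C260T, T489C, T510C and C684T over 843 bases (99.407%), of which T489C and T510C are shown at chr6:7982824-7982945, minus strand.
Gm9825: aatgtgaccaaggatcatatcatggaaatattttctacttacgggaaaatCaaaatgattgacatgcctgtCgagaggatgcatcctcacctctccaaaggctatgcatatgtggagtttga
Rnps1: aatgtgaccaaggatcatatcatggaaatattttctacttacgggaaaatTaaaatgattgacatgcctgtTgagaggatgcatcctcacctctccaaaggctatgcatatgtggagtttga
Rbpj-ps3 has T310C, C949A, G952A and A1088C over 1441 bases (99.722%), of which C949A and G952A are shown at chr6:46529793-46529896, minus strand.
Rbpj-ps3: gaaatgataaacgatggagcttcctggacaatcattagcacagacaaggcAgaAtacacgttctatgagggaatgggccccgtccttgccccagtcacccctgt
Rbpj: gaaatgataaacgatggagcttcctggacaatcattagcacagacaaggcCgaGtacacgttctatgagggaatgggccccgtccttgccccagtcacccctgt
Gm6969 has 1 substitution, C309T, and 6 bases that the Cox7a2l transcript of the reference genome lacks (97.953% over 342 bases). The stretch with those 6 bases, in capitals, is at chr12:24638741-24638847, minus strand.
Gm6969: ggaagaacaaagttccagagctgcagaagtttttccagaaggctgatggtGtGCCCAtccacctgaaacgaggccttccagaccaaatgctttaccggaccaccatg
Cox7a2l: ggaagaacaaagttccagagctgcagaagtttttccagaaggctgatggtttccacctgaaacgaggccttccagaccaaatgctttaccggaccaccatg
Every aligned stretch lies within the coding sequence of its source gene. As background, C57BL/6 mice are known for a short form of Cox7a2l, while many other strains have the long form.

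Because the differences are so few, many reads could come from either member of a pair. Of the stretches of 150 bases, the read length, that fit within Atp6v0c-ps2, 64.9% (205 of 316) were identical to Atp6v0c. That share was 66.0% for Rbpj-ps3 against Rbpj, 44.6% for Gm13443 against Glo1, 33.2% for Gm6969 against Cox7a2l, 19.3% for Gm9825 against Rnps1 and 13.8% for Gm10036 (chr18:15832794-15833330, plus strand) against Rpl11, which differed at 4 bases of 534. Alignment and counting are stated as run with default parameters, under which featureCounts ignores strand and leaves out read pairs that the aligner places at several sites. A value below is thus the count assigned to a gene, and the levels of a copy and of its source are uncertain where their sequence is shared.

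Before the results, the libraries were checked against their labels. Cav1 ranged from 977 to 1361 CPM (counts per 1000000 counts after TMM scaling) over the 12 Control libraries, from 1.62 to 3.93 over the 11 of Cav1-KO and from 1.48 to 6.48 over the 11 of Cav1-RC, close to Cav1-KO. These are RNA counts. For protein, the paper's western blots of whole lung found caveolin-1 at a low level in Cav1-RC and almost none in Cav1-KO. Lung epithelium and vessel markers were detected in every library, and the liver marker Alb was at most 2.96 CPM in any library. By limits on Xist and on 4 Y chromosome genes, 4 of the 34 libraries were flagged as standing against the sex on their label. They are male Control hypoxia replicate 2, male Cav1-RC normoxia replicates 1 and 2, and female Cav1-KO hypoxia replicate 2. The last was flagged by its Y genes alone, which summed to 17.4 CPM, past the limit of 8.12. Its Xist, at 710 CPM, was at the female level, and males that fit their label had at least 182 CPM of Y genes. All were kept under their label, and the main changes in calls without them are given beside the results they touch or in the closing section. In bulk lung, fewer cells of a type and less RNA per cell cannot be told apart.

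Over all libraries, 5 retrocopies were high in Cav1-KO and near the floor in Control, while Atp6v0c, Gm10036 and Nxpe4 were low in Cav1-KO. In Cav1-RC the 8 genes fell into 2 patterns. Atp6v0c, Atp6v0c-ps2, Gm9825, Gm13443 and Gm10036 lay at the Cav1-KO level, and Rbpj-ps3 and Nxpe4 lay near the Control level, with Gm6969 a little above it. The plot of CPM by library shows both patterns.

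**Figure D1:**
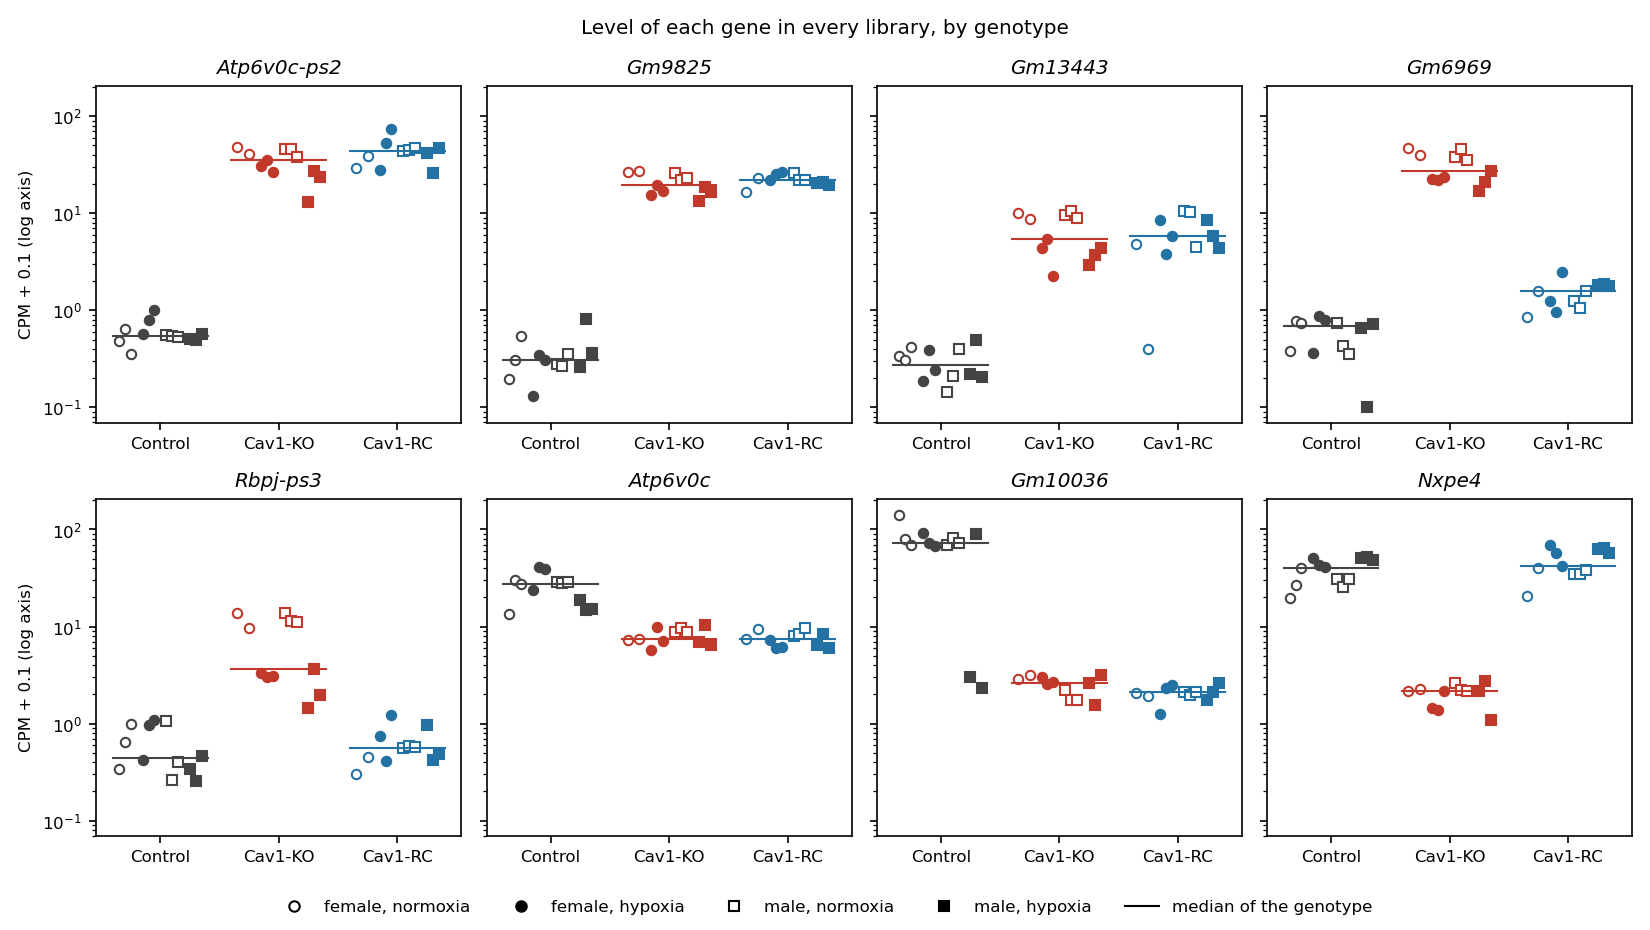
CPM plus 0.1 of the 8 genes on a log axis in each of the 34 libraries, by genotype, with circles for females, squares for males, filled marks for hypoxia and a line at the median of the genotype. Atp6v0c-ps2 lay between 0.256 and 0.909 CPM in Control, between 12.9 and 47.7 in Cav1-KO and between 26.0 and 73.2 in Cav1-RC, while Nxpe4 was low in Cav1-KO alone.

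Among the copies shared by the Cav1-KO and Cav1-RC lines, Atp6v0c-ps2 had 0.256, 0.448 and 0.909 CPM (lowest, median, highest) in the 12 Control libraries, 12.9, 35.6 and 47.7 CPM in the 11 Cav1-KO libraries and 26.0, 43.8 and 73.2 CPM in the 11 Cav1-RC libraries. Its mean in Control was 0.487 ± 0.169 (SD, n = 12), and the means of Cav1-KO and Cav1-RC were 69.7 and 88.1 times that. Every library of both lines lay above every Control library, where only 4 to 17 reads per library were assigned to this copy. Gm9825 had 0.0296, 0.207 and 0.705 CPM in Control, 13.3, 19.5 and 27.4 in Cav1-KO and 16.5, 21.8 and 26.5 in Cav1-RC. Its Cav1-KO mean was 20.4 ± 4.84 CPM (SD, n = 11) and its Cav1-RC mean 22.2 ± 2.98 (SD, n = 11), 82.5 and 89.7 times that of Control. No library of either line overlapped Control for this copy of an RNA-splicing gene, which had 1 to 9 reads in a Control library.

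Gm13443, the Glo1 copy, was lower in all lines. It had 0.0456, 0.172 and 0.391 CPM in Control, 2.15, 5.32 and 10.6 in Cav1-KO and 0.296, 5.71 and 10.4 in Cav1-RC. Its mean rose from 0.196 ± 0.110 CPM (SD, n = 12) in Control to 6.39 ± 3.18 (SD, n = 11) in Cav1-KO, a ratio of 32.6, and was 6.02 ± 3.06 (SD, n = 11) in Cav1-RC. A single Cav1-RC library, female normoxia replicate 2, lay within the Control range at 0.296 CPM, and the other 10 had 3.67 to 10.4. In the same library Glo1 stood at 53.3 CPM, within the Control range, against 78.0 to 122 CPM in the other 10, so the copy and its source were both at the Control level there. Female Cav1-RC normoxia has 2 libraries, and the label of this one gives no sign of another genotype.

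Gm10036, the Rpl11 copy, ran the other way, with 2.25, 72.0 and 142 CPM in Control, 1.47, 2.49 and 3.07 in Cav1-KO and 1.16, 2.03 and 2.52 in Cav1-RC. The Control mean of 70.1 ± 37.6 CPM (SD, n = 12) was 29.4 times that of Cav1-KO and 35.4 times that of Cav1-RC. Control itself was split. Male Control hypoxia replicates 1 and 3 had 2.93 and 2.25 CPM, at the level of the knockout lines, and the other 10 Control libraries had 67.6 to 142 CPM (mean 83.6 ± 22.6, SD, n = 10). Rpl11 was 430 and 399 CPM in those 2 libraries and 276 to 377 CPM in the other 10. The third male Control hypoxia library, replicate 2, had 90.3 CPM of Gm10036, and it is the one that stood against its sex label.

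Atp6v0c itself had 13.2, 27.4 and 41.0 CPM in Control, 5.66, 7.26 and 10.2 in Cav1-KO and 5.88, 7.37 and 9.45 in Cav1-RC. Its Control mean of 25.7 ± 9.09 CPM (SD, n = 12) was 3.23 times that of Cav1-KO and 3.44 times that of Cav1-RC, and neither line overlapped Control. An overlapping gene, Gm43796, had at most 2 counts in any library. Per length, the median FPKM (fragments per kilobase and per 1000000 fragments, as deposited) of Atp6v0c over the Control, Cav1-KO and Cav1-RC libraries was 8.04, 2.11 and 2.15, while that of Atp6v0c-ps2 was 0.959, 75.8 and 93.3, so that in both lines the copy stood above its source on this scale.

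A copy each of Cox7a2l and Rbpj, and Nxpe4, lay far from Control in Cav1-KO and much nearer to it in Cav1-RC. Gm6969 had 0, 0.594 and 0.780 CPM in Control, 16.8, 27.4 and 46.6 in Cav1-KO and 0.744, 1.48 and 2.40 in Cav1-RC. The means were 0.480 ± 0.242 (SD, n = 12), 30.7 ± 10.6 (SD, n = 11) and 1.40 ± 0.483 (SD, n = 11), which puts Cav1-KO at 64.0 and Cav1-RC at 2.92 times Control. Cav1-KO overlapped neither of the others, and Cav1-RC reached into the Control range at its low end. Rbpj-ps3 had 0.157, 0.345 and 0.979 CPM in Control, 1.36, 3.58 and 13.6 in Cav1-KO and 0.203, 0.457 and 1.13 in Cav1-RC. Its Cav1-KO mean of 6.81 ± 4.93 CPM (SD, n = 11) was 13.6 times the Control mean and its Cav1-RC mean was 1.02 times that. Gm6969 and Rbpj-ps3 are on different chromosomes, and their log2 CPM over the 34 libraries correlated with r = 0.91, a description in which the shared genotype groups carry most of the spread.

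Nxpe4, a member of the neurexophilin and PC-esterase domain family, lies on chr9:48162023-48400025 (plus strand) and holds Nxpe2 within its span on the other strand, so that reads from both cannot be told apart where they overlap if strand was ignored. It had 19.4, 40.3 and 52.3 CPM in Control, 1.00, 2.07 and 2.62 in Cav1-KO and 20.5, 42.2 and 69.0 in Cav1-RC. The Control mean of 38.2 ± 11.3 CPM (SD, n = 12) was 19.7 times that of Cav1-KO, and Cav1-RC stood at 47.3 ± 15.5 (SD, n = 11). Every Cav1-KO library was below every other library, with 23 to 55 counts each.

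Counted over the set, the levels of 7 of the 8 genes did not overlap between Cav1-KO and Control, where 0.523% of 19870 genes did so. Gm10036 was the exception, through the 2 male Control hypoxia libraries, and without them all 8 were apart. Between Cav1-RC and Control, 3 of 8 did not overlap, against 0.372% of genes, and these were Atp6v0c, Atp6v0c-ps2 and Gm9825. Between Cav1-RC and Cav1-KO, 3 of 8 did not overlap, against 1.56% of genes, namely Gm6969, Nxpe4 and Rbpj-ps3. Since the genes were chosen on these levels, the counts describe the choice. Of the genes kept on chromosome 17, home of 4 source genes, 26 of 948 (2.74%) were apart between Cav1-KO and Control and 6 (0.633%) between Cav1-RC and Control. On chromosome 6, which carries Cav1 and 3 of the copies, 7 of 1153 (0.607%) and 8 (0.694%) were apart in the same comparisons. Of the processed pseudogenes, 11 of 976 (1.13%) and 7 (0.717%) were.

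By sex and oxygen level, the log2 fold changes in Cav1-KO of Gm9825 were 6.76 and 6.84 in normoxic and hypoxic females and 6.78 and 5.58 in normoxic and hypoxic males. Those of Atp6v0c-ps2 were 6.77, 5.53, 6.56 and 5.62 in the same order, and of Gm6969 6.34, 5.33, 6.55 and 5.598. Gm13443 had 5.14, 4.49, 5.87 and 4.24, and Rbpj-ps3 4.37, 2.11, 4.58 and 3.07. The 5 copies were thus higher in all 4 comparisons. The genes lower in Cav1-KO were so in all 4 too, at -5.07, -4.87, -5.39 and -3.71 for Gm10036, at -3.79, -4.83, -3.72 and -4.75 for Nxpe4 and at -1.72, -2.21, -1.68 and -1.05 for Atp6v0c. The value of Gm10036 in hypoxic males rests on Control replicate 2, the library against its sex label, since the other 2 Control libraries, at 2.93 and 2.25 CPM, lay within the range of the 3 Cav1-KO libraries there. A call here needs a log2 fold change beyond 1 in either direction and an adjusted p under 0.05 (Benjamini-Hochberg). By that rule 6 of 8 genes passed in normoxic females (0.122% of all genes tested passed), 7 in hypoxic females (0.768%), 8 in normoxic males (5.0%) and 6 in hypoxic males (0.929%). Without the library against its sex label, 5 passed in hypoxic females (Cav1-KO replicate 2) and 7 in hypoxic males (Control replicate 2). In normoxic females 1 of 8 passed without Control replicate 2, and 2 without either of the Cav1-KO libraries. In Cav1-RC against Control, 3 of the 6 genes that passed the filter on low counts did so in normoxic females (0.137%), 5 of 8 in hypoxic females (0.832%), 5 of 7 in normoxic males (2.45%) and 5 of 7 in hypoxic males (9.9%). A fit over all libraries, averaged over sex and oxygen level, passed all 8 in Cav1-KO (3.52% of genes) and 6 in Cav1-RC (3.91%), which were all but Nxpe4 and Rbpj-ps3. These comparisons are the ones the genes were chosen on, so the counts and shares describe the choice and test nothing. Its log2 fold change in Cav1-RC was 0.25 for Nxpe4, 0.02 for Rbpj-ps3 and 1.51 for Gm6969.

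Of the 6 source genes 5 are not members and were tested. The choice looked at pairs of copy and source, and the 2 share reads, so these tests are not independent of it. Their levels moved in different ways beside their copies. Rnps1 fell in Cav1-KO with its copy high, Glo1 rose together with its copy, and Cox7a2l and Rpl11 had the smallest changes of the 5. Rnps1 had a mean of 49.6 CPM in Control, against 15.2 in Cav1-KO and a Cav1-RC mean of 16.7. In the fit over all libraries it fell by 1.71 on the log2 scale in Cav1-KO (SE 0.07, adjusted p = 1.57e-15, edgeR quasi-likelihood test as throughout) and by 1.57 in Cav1-RC (SE 0.07, adjusted p = 1.31e-14). It was called lower in 3 of 4 single comparisons of each line. Without the libraries against their sex label, the Cav1-RC calls of Rnps1 (-1.59, adjusted p = 0.0861) and Glo1 (0.79, adjusted p = 0.315) in normoxic males were lost. Glo1 had 53.5 CPM in Control, against 101 in Cav1-KO and a Cav1-RC mean of 100, with log2 fold changes of 0.93 (SE 0.10, adjusted p = 8.75e-08) and 0.87 (SE 0.10, adjusted p = 2.53e-07), and was called in 1 and 2 of the 4 single comparisons.

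Rbpj had 61.2 CPM in Control, against 30.4 in Cav1-KO and a Cav1-RC mean of 62.8. In Cav1-KO it changed by -0.9988 on the log2 scale (SE 0.07, adjusted p = 2.59e-11), just short of the fold threshold, and it was called lower in 2 of 4 single comparisons, of which that in hypoxic females was lost without the library against its sex label (-1.13, adjusted p = 0.196), while in Cav1-RC the change was 0.05 (adjusted p = 0.642). Rbpj and its copy thus both differed in Cav1-KO, in opposite directions, and neither did so in Cav1-RC in this fit. Cox7a2l, with 143, 111 and 149 CPM over the 3 genotypes, had a log2 fold change of -0.37 in Cav1-KO (SE 0.06, adjusted p = 5.9e-05) and 0.05 in Cav1-RC (adjusted p = 0.573) and was called in no single comparison. Rpl11, the most abundant source gene in CPM, had 325, 396 and 404 CPM, with 0.29 in Cav1-KO (adjusted p = 0.00826) and 0.32 in Cav1-RC (adjusted p = 0.0051), below the fold threshold in each of the 4 single comparisons of both lines.

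The summed CPM of a copy and its source show how the reads of the pair were divided. For Atp6v0c and Atp6v0c-ps2 the sum was 26.1 ± 9.21 in Control (SD, n = 12), 41.9 ± 11.5 in Cav1-KO and 50.4 ± 12.8 in Cav1-RC (SD, n = 11 each), and the copy made up 1.98%, 79.9% and 84.2% of it. The 3 ranges of that sum overlapped. For Rnps1 and Gm9825 the sum was 49.9 ± 3.85, 35.6 ± 8.11 and 38.9 ± 4.35, with 0.493%, 57.2% and 56.9% from the copy, and again the ranges overlapped. The sum of Cox7a2l and Gm6969 was 143 ± 17.1, 141 ± 10.4 and 150 ± 10.0, with 0.335%, 21.6% and 0.927% from Gm6969. Here the sums lay within 1 SD of each other while the share of the copy did not overlap between Cav1-KO and the other genotypes. Rpl11 and Gm10036 gave 395 ± 46.9, 398 ± 50.7 and 406 ± 43.2 with 17.8%, 0.597% and 0.485% from the copy.

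In 2 pairs the sum itself was apart. Rbpj and Rbpj-ps3 together had 61.7 ± 10.6 CPM in Control, against 37.2 ± 6.32 in Cav1-KO and a Cav1-RC mean of 63.3 ± 6.62, and every Cav1-KO library was below every library of the others. The copy made up 0.771%, 16.8% and 0.809% of those reads. Glo1 and Gm13443 together had 53.7 ± 6.17, 107 ± 19.2 and 106 ± 24.3 CPM, the Cav1-KO libraries all above Control, and the copy reached 5.66% of it in Cav1-KO.

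**Figure D2:**
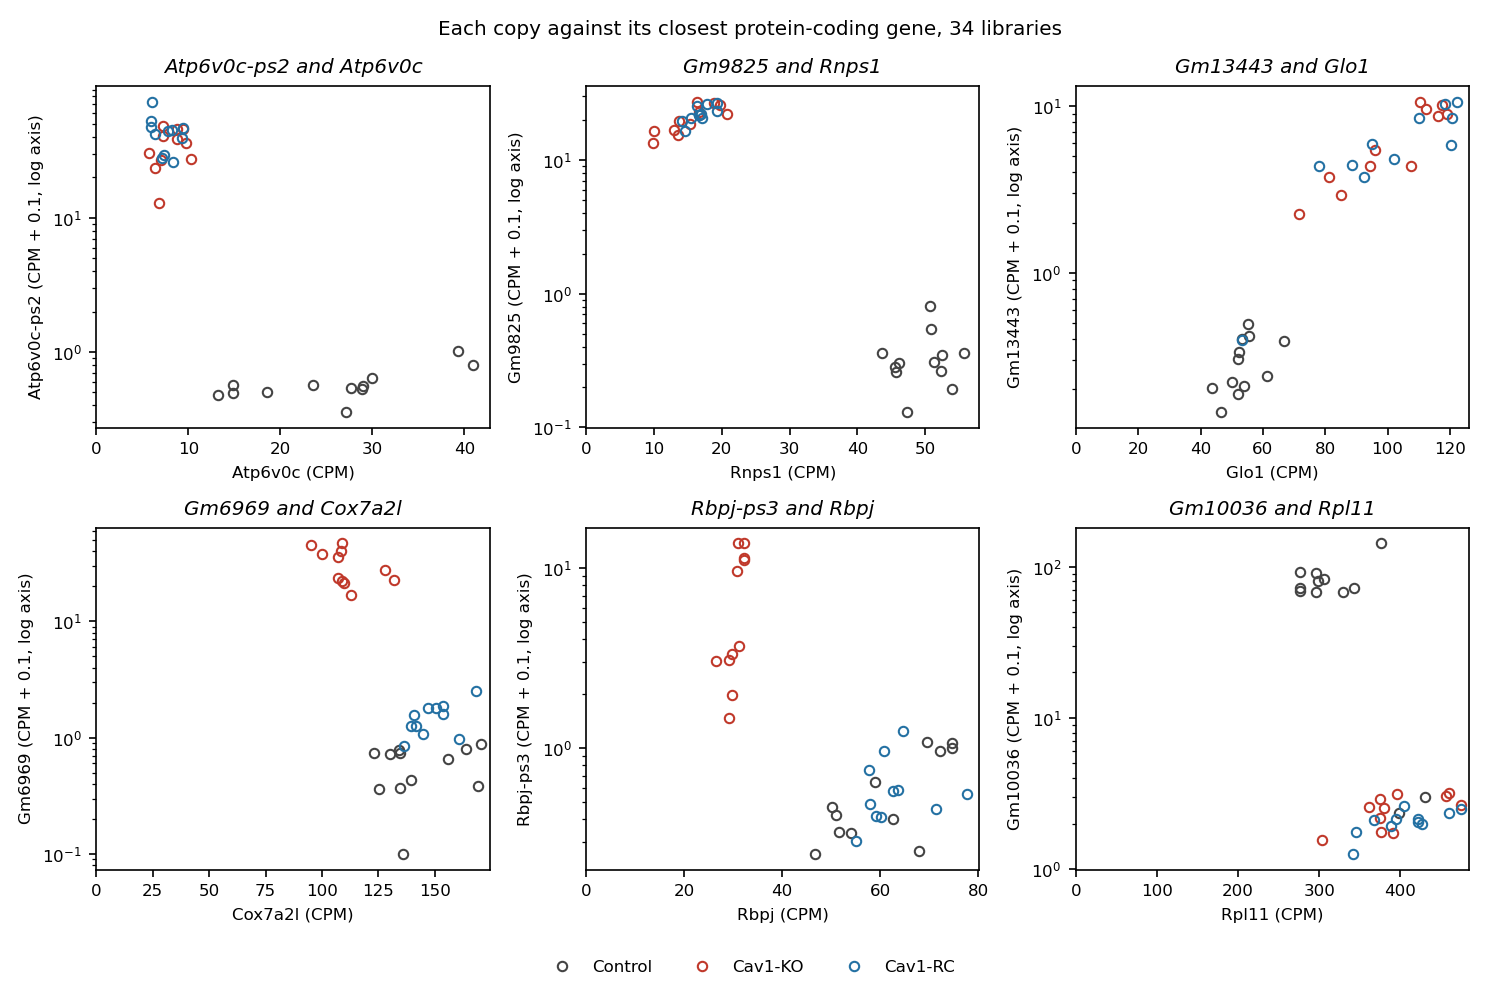
CPM plus 0.1 of each copy on a log axis against the CPM of its source gene on a linear axis, 1 point per library, coloured by genotype. For Atp6v0c-ps2 and Gm9825 the Cav1-KO and Cav1-RC libraries lie together, higher for the copy and lower for the source than Control, while for Gm6969 and Rbpj-ps3 the Cav1-RC libraries lie near Control.

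Further copies of the same source genes gave few reads. Of 10 in the deposited table, 5 had at most 3 counts in every library, and only Gm10288, another Rpl11 copy, passed the filter on low counts over all libraries. Its mean was 11.5 CPM in Control, against 11.6 in Cav1-KO and a Cav1-RC mean of 10.1, so it did not share the difference of Gm10036.

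Hypoxia against normoxia was not part of the choice and was tested in each genotype and sex. In Cav1-KO lungs the 5 retrocopies fell in hypoxia in both sexes, each with an adjusted p under 0.05, and Rbpj-ps3 had the largest change. At that adjusted p and with no fold threshold, 38.2% of all genes changed in female and 55.1% in male Cav1-KO, and 20% and 27.5% fell, so that 5 of 8 members is no result about the members as a set. In females, Rbpj-ps3 and Gm6969 kept that adjusted p without any 1 library, while Atp6v0c-ps2, Gm9825 and Gm13443 did not. Past the fold threshold too were Gm13443 and Rbpj-ps3 in females, and these with Atp6v0c-ps2 in males. Nxpe4 rose in Control and Cav1-RC males by less than the fold threshold, and Atp6v0c fell by less than it in Control males, where 16.0% of all genes in Control and 7.89% in Cav1-RC males had such an adjusted p. The other Control and Cav1-RC comparisons gave no call.

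Rbpj-ps3 had 13.6 and 9.56 CPM in the 2 normoxic Cav1-KO females and 3.23, 2.95 and 2.97 in the 3 hypoxic ones, and 13.6, 11.3 and 10.9 CPM in normoxic males against 1.36, 3.58 and 1.87 in hypoxic males. All normoxic libraries lay above all hypoxic ones. It fell by 1.93 on the log2 scale in females (SE 0.22, adjusted p = 0.00151) and by 2.44 in males (SE 0.32, adjusted p = 0.000327), and it remained called in each of the 5 female and 6 male fits that left out 1 library. Its source Rbpj had 31.1 and 30.8 against 29.8, 26.5 and 29.1 CPM in those females, a log2 change of -0.12 (adjusted p = 0.379), and -0.10 in males (adjusted p = 0.309).

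Gm13443 had 10.1 and 8.66 CPM in normoxic and 4.31, 5.32 and 2.15 in hypoxic Cav1-KO females, and 9.58, 10.6 and 8.92 in normoxic and 2.84, 3.65 and 4.26 in hypoxic males. The groups did not overlap in either sex. It fell by 1.26 in females (SE 0.36, adjusted p = 0.0308) and by 1.44 in males (SE 0.20, adjusted p = 0.000433). The male call held without any 1 library. The female call held only without hypoxia replicate 2, and the log2 fold change was -1.32 (adjusted p = 0.0564) without hypoxia replicate 1, -0.96 without hypoxia replicate 3, -1.14 (adjusted p = 0.165) without normoxia replicate 1 and -1.36 (adjusted p = 0.104) without normoxia replicate 2. Glo1 changed by -0.35 in females (adjusted p = 0.129) and by -0.39 in males (adjusted p = 0.00462).

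Atp6v0c-ps2 had 45.4, 45.4 and 38.2 CPM in normoxic Cav1-KO males and 12.9, 27.3 and 23.4 in hypoxic ones, and 47.7 and 40.6 against 30.4, 35.6 and 26.8 CPM in females. It fell by 1.03 in males (SE 0.23, adjusted p = 0.00541) and by 0.52 in females (SE 0.14, adjusted p = 0.0284), where it stayed under the fold threshold. The female adjusted p was 0.0632 without hypoxia replicate 1, 0.204 without normoxia replicate 1 and 0.0716 without normoxia replicate 2. Without male Cav1-KO hypoxia replicate 1 the male change was -0.76, and without normoxia replicate 1 or 2 it was -0.9963 and -0.9953, just under the threshold. Gm6969 fell by 0.93 in females (SE 0.11, adjusted p = 0.00163) and by 0.86 in males (SE 0.17, adjusted p = 0.00304), with 46.6 and 39.7 CPM against 22.4, 22.0 and 23.5 in females. Without female normoxia replicate 2 its change was -1.04, and without male hypoxia replicate 3 it was -1.07, both then past the fold threshold. Gm9825 fell by 0.65 in females (SE 0.14, adjusted p = 0.00985) and by 0.55 in males (SE 0.14, adjusted p = 0.00878), with a female adjusted p of 0.0628 and 0.0694 without normoxia replicate 1 or 2. The CPM of hypoxic and normoxic Cav1-KO libraries did not overlap for any of these 3 copies in either sex. Rnps1, the source of Gm9825, was lower in hypoxia too, at 12.9 to 13.7 against 16.3 to 18.9 CPM in females. In males it had 9.90 to 15.2 CPM in hypoxia against 16.7 to 20.7 in normoxia.

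**Figure D3:**
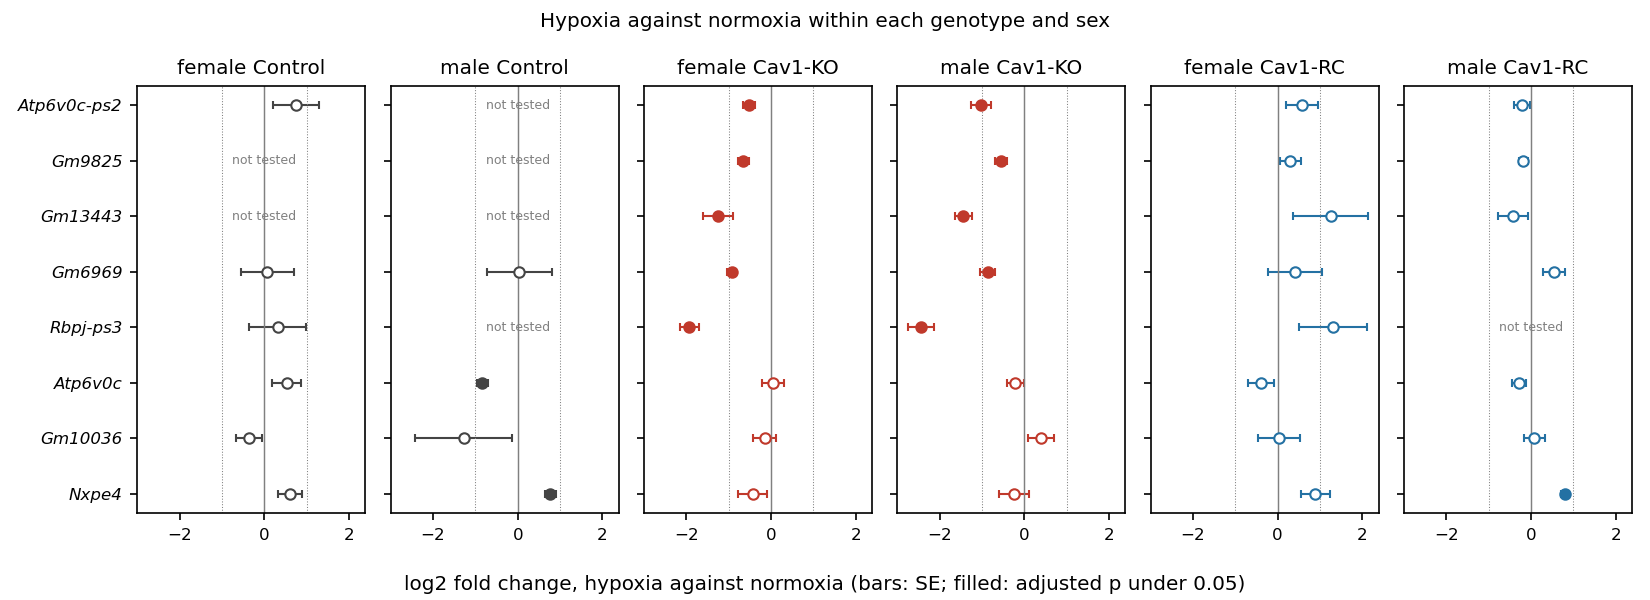
Log2 fold change of hypoxia against normoxia with its standard error for the 8 genes in each genotype and sex, with filled points for an adjusted p under 0.05 and dotted lines at the fold threshold. The 5 copies lie below 0 in both sexes of Cav1-KO, down to -2.44 for Rbpj-ps3 in males, and Nxpe4 lies above 0 in Control and Cav1-RC.

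Against the background, 2 of 8 genes were called in female Cav1-KO, where 13.3% of all genes were, and 3 of 8 in male Cav1-KO, where 17.7% were. Oxygen level went with other differences between these libraries. All 6 hypoxic and none of the 5 normoxic Cav1-KO mice are on the list of animals used for the study's western blots, so that oxygen level and listing cannot be told apart within Cav1-KO. When that list entered the fit of all 34 libraries as a further term, no member was called, Rbpj-ps3 changed by -0.54 in females (adjusted p = 0.819) and by -1.03 in males (adjusted p = 0.559), and Gm6969 and Gm9825 turned direction. Gm13443 went the other way, to -2.51 in females (adjusted p = 0.225) and -2.70 in males (adjusted p = 0.156), larger in size than without the term. That fit differs from the one above both in the term and in using all 34 libraries. The lost calls can therefore not be put down to the term alone. Each Cav1-KO group was wholly listed or wholly unlisted, so the term was set by mixed female groups of the other genotypes. Rbpj-ps3 and Gm6969 were low in those groups. The lost calls and turned directions are thus no result about Cav1-KO. The summed CPM of 6 lung epithelium markers was 55680 to 71560 in hypoxic against 29188 to 32122 in normoxic Cav1-KO females, and 60246 to 68144 against 32190 to 33623 in males. That of 3 cardiac muscle markers was 200.5 to 422.04 against 545 to 694 in females and 139 to 328.6 against 630 to 789 in males. For 5 vessel and stroma markers the sums were 2421 to 3271 against 3038 to 3358 in females and 2515 to 2951 against 3015 to 3296 in males, and for 4 blood cell markers 1158 to 2808 against 1190 to 1212 and 1002 to 8792 against 785 to 1153. The part of listing and of these markers in the changes of the copies was not tested.

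In male Control, where 6.36% of all genes were called, 0 of the 4 members tested were called. At an unadjusted p under 0.05 there were 2, Atp6v0c and Nxpe4, and the Wald test of DESeq2 called 0. Atp6v0c had 29.0, 27.7 and 28.9 CPM in normoxia and 18.5, 14.9 and 14.9 in hypoxia, without overlap, and fell by 0.84 (SE 0.13, adjusted p = 0.0112). Nxpe4 had 30.9, 25.3 and 31.0 CPM in normoxia and 50.2, 52.3 and 48.4 in hypoxia and rose by 0.77 (SE 0.12, adjusted p = 0.0111). Without hypoxia replicate 3 the adjusted p was 0.0621 for Atp6v0c and 0.0543 for Nxpe4, and 0.0509 for Nxpe4 without hypoxia replicate 1. All 3 hypoxic and no normoxic male Control mice are on the western blot list. Gm10036, with 68.4, 82.4 and 72.0 CPM in normoxia and 2.93, 90.3 and 2.25 in hypoxia, changed by -1.27 (SE 1.15, adjusted p = 0.454). Without hypoxia replicate 2, the library against its sex label, that change was -4.84 (SE 0.19, adjusted p = 6.89e-05). The 4 copies Atp6v0c-ps2, Gm9825, Gm13443 and Rbpj-ps3 were too low in male Control to be tested.

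In male Cav1-RC (2.27% of genes called), 0 of 7 members were called, with 1 at an unadjusted p under 0.05 and 0 by DESeq2. Nxpe4 had 34.6, 34.7 and 38.4 CPM in normoxia and 63.4, 63.9 and 57.2 in hypoxia, a change of 0.80 (SE 0.08, adjusted p = 0.00202). Without normoxia replicates 1 and 2, both against their sex label, it was 0.69 (adjusted p = 0.124). In female Control (0.0175% of genes called) 0 of 6 members were called, with 0 at an unadjusted p under 0.05 and 0 by DESeq2. In female Cav1-RC (0.0285%) 0 of 8 were called, with 1 at an unadjusted p under 0.05, again Nxpe4, and 0 by DESeq2. Its female levels went from 19.4, 26.9 and 40.1 to 51.3, 42.7 and 40.5 CPM in Control and from 20.5 and 39.7 to 69.0, 56.9 and 42.2 CPM in Cav1-RC, every hypoxic library above every normoxic one. In Cav1-KO, where Nxpe4 is near 2 CPM, its changes were -0.43 in females (adjusted p = 0.346) and -0.25 in males (adjusted p = 0.566). Nxpe2, which lies within Nxpe4 on the other strand, rose in hypoxic Cav1-KO by 2.48 in females (SE 0.50, adjusted p = 0.00923) and by 2.27 in males (SE 0.51, adjusted p = 0.00496), from 0.349 to 0.951 CPM in normoxia to 1.22 to 3.87 CPM in hypoxia.

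The difference of the Cav1-KO effect between oxygen levels was tested over all libraries, where 9.07% of genes were called. It is built from the Cav1-KO against Control values on which the genes were chosen, and the copies pass the filter on low counts through Cav1-KO and Cav1-RC, so its calls support nothing beyond the values themselves. It was called for 3 of 8 members. The Cav1-KO effect in hypoxia minus that in normoxia was -1.90 on the log2 scale for Rbpj-ps3 (SE 0.54, adjusted p = 0.0175), -1.06 for Nxpe4 (SE 0.29, adjusted p = 0.0148) and -1.11 for Atp6v0c-ps2 (SE 0.40, adjusted p = 0.0495). For the 2 copies this is a smaller rise in hypoxia, and for Nxpe4 a larger fall. The call of Rbpj-ps3 was lost without female Cav1-KO normoxia replicate 1 (-1.74, adjusted p = 0.0521). Nxpe4 stayed under the adjusted p threshold in every fit that left out 1 library, and its change was under 1 without female Control normoxia replicate 1 (-0.90), female Cav1-KO hypoxia replicate 1 (-0.97) or 2 (-0.94), or male Cav1-KO hypoxia replicate 3 (-0.85). Atp6v0c-ps2 was called in only 7 of the 34 such fits, with an adjusted p of up to 0.109. In females alone, with 0 called, and in males alone, with Nxpe4 called, Rbpj-ps3 had -2.27 (adjusted p = 0.167) and -1.52 (adjusted p = 0.216). DESeq2 called 3 members here too. With the blot-list term, which no Cav1-KO group could set, all 3 calls were lost. Rbpj-ps3 then had -1.22 (adjusted p = 0.183), Nxpe4 -0.89 (adjusted p = 0.0754) and Atp6v0c-ps2 -0.88 (adjusted p = 0.270). Without the 4 libraries against their sex label, Nxpe4 had -0.95 (adjusted p = 0.0610), Atp6v0c-ps2 -1.16 (adjusted p = 0.0802) and Rbpj-ps3 -1.96 (adjusted p = 0.0448). Gm10036 was called without them at 2.76 (adjusted p = 1.54e-05), and at 2.71 (adjusted p = 1.56e-06) without male Control hypoxia replicate 2 alone, against 0.92 (adjusted p = 0.387) with all libraries. Without that 1 library Gm6969 was called too, at -1.20 (adjusted p = 0.0359), against -0.99 (adjusted p = 0.112) with all libraries. It was also called without female Control hypoxia replicate 1, at -1.21 (adjusted p = 0.0316).

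No member passed the thresholds between the sexes. In males against females (0.0403% of genes called), 0 of 8 were called, with 0 at an unadjusted p under 0.05 and 0 by DESeq2, and the log2 fold changes lay between -0.40 for Gm10036 and 0.19 for Gm13443. The difference of the Cav1-KO effect between females and males (0.00503% of genes called) is built from the Cav1-KO against Control values on which the genes were chosen, so its calls, and their absence, support nothing beyond the values themselves. It was called for 0 of 8, with 1 at an unadjusted p under 0.05, Atp6v0c, and 0 by DESeq2. Without male Control hypoxia replicate 2, Gm10036 was called in both, at -1.001 (adjusted p = 1.17e-05) and -2.21 (adjusted p = 5.22e-05).

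The genes around the members were taken from a window of 1 Mb on each side and tested in the fit over all libraries. The members were chosen on the same genotype comparisons and with a look at gene positions. Among the neighbours, Rnps1 and Nxpe2 may also share reads with members. The counts of neighbours called are therefore a description and no independent test. In Cav1-KO against Control, 15 of 169 tested neighbours were called (8.88%, beside 3.52% of all genes), 4 higher and 11 lower, and 11 of the 15 lay near Atp6v0c on chromosome 17, among 74 tested there. They included Rnps1 at 0.245 Mb, the source of Gm9825, so that 2 source genes of chromosome 6 copies are neighbours on chromosome 17. Eme2, a subunit of a DNA repair endonuclease, fell by 1.95 (SE 0.16, adjusted p = 1.97e-09), and Tbc1d24, next by adjusted p, fell by 0.87 (SE 0.09, adjusted p = 4.66e-08), which is under the fold threshold. Near Nxpe4, 3 of 12 were called. Nxpe2 fell by 2.63 (SE 0.18, adjusted p = 4.13e-11) and Nnmt, which methylates nicotinamide, by 1.88 (SE 0.14, adjusted p = 1.3e-10).

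Around Gm13443 1 of 32 was called. For the other 5 members the test called 0 neighbours, of 18 near Atp6v0c-ps2, 6 near Gm10036, 10 near Gm6969, 13 near Gm9825 and 4 near Rbpj-ps3, with 6, 1, 5, 1 and 1 of them at an unadjusted p under 0.05, and the Wald test of DESeq2 called 16 neighbours over all members. In Cav1-RC against Control 14 of 169 were called (8.28%, beside 3.91% of all genes), of which 12 lay near Atp6v0c. There Rnps1 changed by -1.57, Eme2 by -2.02 (SE 0.16, adjusted p = 1.26e-09) and Tbc1d24 by -0.72 (SE 0.09, adjusted p = 8.33e-07), close to their values in Cav1-KO. Near Nxpe4 only Nxpe1-ps was called in Cav1-RC (1.45, SE 0.34, adjusted p = 0.00484), while Nnmt had -0.30 (adjusted p = 0.105) and Nxpe2 had 7.23 CPM on average beside 7.21 in Control. Called genes thus lay near Atp6v0c in both lines. The comparisons of the 2 lines share their Control libraries.

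**Figure D4:**
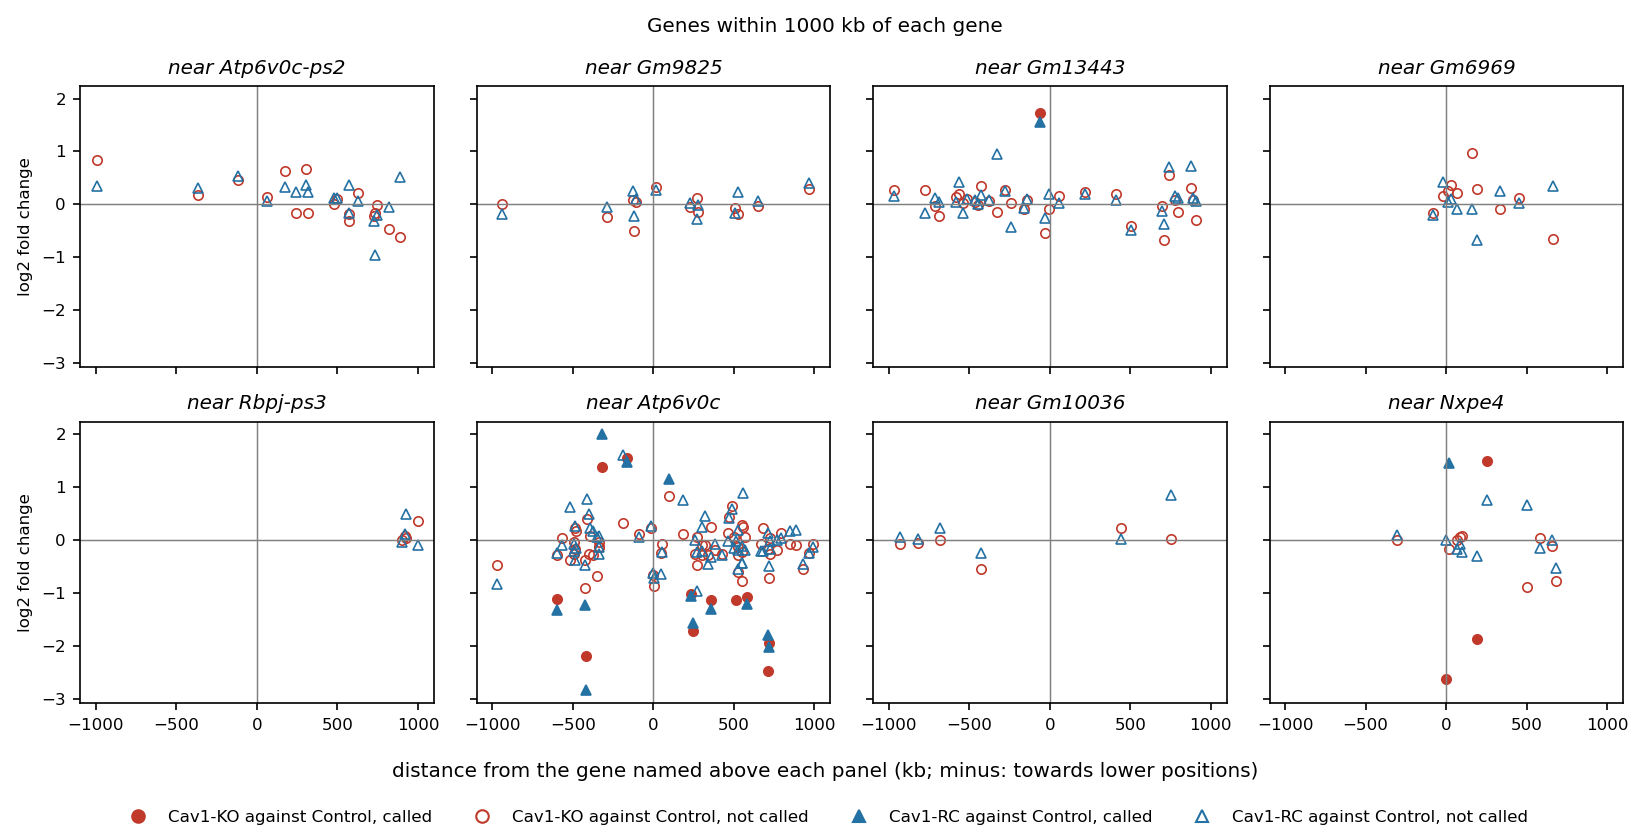
Log2 fold change of Cav1-KO and Cav1-RC against Control for the tested genes within 1 Mb of each of the 8 genes, by distance in kb, with filled marks for calls. Near Atp6v0c calls such as Rnps1 and Eme2 occur in both lines, and near Nxpe4 the calls of Nxpe2 and Nnmt are in Cav1-KO.

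The other subunits of the proton pump to which Atp6v0c belongs were read from a list of 24 genes. Of 23 tested, 0 were called in Cav1-KO, with 3 at an unadjusted p under 0.05 and 0 by DESeq2, and their median log2 fold change was -0.01, equal to that of all genes at 2 decimals. The smallest adjusted p was that of Atp6v1b1, a subunit of the catalytic part, at -0.62 (SE 0.20, adjusted p = 0.0379). In Cav1-RC 0 of 23 were called by edgeR, with 9 at an unadjusted p under 0.05 (DESeq2 was not run for this list in Cav1-RC), and the median was -0.11 beside -0.02 for all genes. Atp6v1g1 had -0.54 (SE 0.11, adjusted p = 0.00171), Atp6v1c1 -0.19 (SE 0.05, adjusted p = 0.0157) and Atp6ap2, an accessory protein of the pump, -0.17 (SE 0.05, adjusted p = 0.03). Of the 4 other Nxpe genes, only Nxpe2 was called in Cav1-KO and only Nxpe1-ps in Cav1-RC, where Nxpe3 had -0.45 (SE 0.10, adjusted p = 0.00301).

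For each member the 3 genes with the most similar log2 CPM over the 34 libraries were found. For Gm13443 they were its source Glo1 (Pearson r = 0.97), then Gm8810 (0.91) and Srd5a2 (0.89). For Atp6v0c they were Cav1 (0.90), Rnps1 (0.90) and Gm21451 (0.88), for Atp6v0c-ps2 Srd5a2 (0.92), Nlrp1a (0.92) and Gm5819 (0.90), and for Gm9825 Gm5819 (0.93), Nlrp1a (0.91) and Srd5a2 (0.91). Atp6v0c-ps2 and Gm9825, on the same chromosome, had r = 0.98 with each other. Gm10036 ran with Gm10093 (0.96), Tlcd2 (0.94) and Grik3 (0.93). Those most like Gm6969 were Gm9008 (0.94), Pthlh (0.92) and Gm17222 (0.89), those most like Rbpj-ps3 Gm9008 (0.89), Gadl1 (0.85) and Myl1 (0.85), and those most like Nxpe4 Gm26510 (0.95), Rnf26 (0.94) and Colq (0.92). These are correlations over libraries that share 12 groups and their depth, and they say that the genes split the same libraries in the same way.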

How the data were processed

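Per the labels, poly-A RNA from whole lung was made into directional libraries and sequenced as pairs of 150 bases. The authors aligned reads with HISAT2 2.0.5 to mm10 and counted them per gene with featureCounts 1.5.0-p3, and the deposited table holds these raw counts, which were tested here, and FPKM values, which the authors scaled by gene length and depth and which served here only to set genes side by side. Both steps are stated as run with default parameters, under which featureCounts ignores strand and leaves out reads placed at several sites.

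The members, the gene lists and the tests were chosen with earlier results of these data known. Groups came from the labels. Genes were kept with filterByExpr of edgeR 4.0.16 (R 4.3.3, limma 3.58.1), scaled by TMM and tested with the quasi-likelihood F test, pairwise within the 2 groups compared for each sex, oxygen level or genotype, and over all 34 libraries (19870 genes kept) for contrasts averaged over groups and for differences of effects. Calls used the study's thresholds, a log2 fold change beyond 1 in either direction with an adjusted p under 0.05 (Benjamini-Hochberg, over all genes tested). CPM used TMM library sizes, and log2 CPM a prior count of 2.

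Source genes came from a megablast match of each member to GENCODE vM21 transcripts, added once the data were seen, except Atp6v0c and Rbpj, which the symbols name. The differing bases of 2 pairs are not reported here. All 8 members, their source genes and copies, the 3 genes most correlated with each member and up to 3 genes of smallest adjusted p in each list were named. Libraries at odds with their sex label were found from Xist and Y chromosome genes. A supplement of the study names the animals used for western blots, 12 of the 34, which gave the blot-list term. Scripts were tested on simulated counts. Alternatives were TMM against DESeq2 1.42.0 size factors, the DESeq2 Wald test, no filter, no fold threshold, the replicate block, the blot-list term, single sexes, sums of copies with their source, and leaving out libraries. Where this left 1 library in a group, it was taken to vary like the other groups. Replicate numbers did not pair the samples, since in 0 of 13 comparisons with 3 pairs did every pair deviate together with a correlation over 0.1 (range over all comparisons -0.165 to 0.565).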

Additional observations from a re-analysis of the deposited data

Results flagged for a closer look

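For 3 genes the Cav1-KO effect in hypoxia minus that in normoxia was past the thresholds, on values that the choice of genes had used, so that the calls support nothing further. The differences were those of Rbpj-ps3 (-1.90), Atp6v0c-ps2 (-1.11) and Nxpe4 (-1.06 on the log2 scale). The call of Atp6v0c-ps2 was kept in 7 of 34 fits that left out 1 library and was lost with DESeq2 size factors (-1.07, adjusted p = 0.0540). In 3 further cases all hypoxic libraries lay above all normoxic ones in one group and below all of them in the other, and the difference was not tested. The hypoxia effect on Gm6969 in male Cav1-KO minus that in male Cav1-RC was -1.37, that on Nxpe4 in female Control minus female Cav1-KO was 1.07, and that on Nxpe4 in female Cav1-KO minus female Cav1-RC was -1.33. The library with an uncertain genotype label had levels above every Control library for 5 copies, with 19.4 CPM of Atp6v0c-ps2, 18.6 of Gm6969, 14.5 of Gm9825, 3.69 of Gm13443 and 1.60 of Rbpj-ps3. This library lay within the Cav1-KO range for all members but Atp6v0c, which at 3.31 CPM was below every other library. It lay within the Cav1-RC range for Gm10036 and Gm13443 alone, with 1.33 CPM of Nxpe4 against 20.5 to 69.0 in Cav1-RC. It entered no comparison and was assigned to no group.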

How the results depend on the processing

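Without a fold threshold the members called for hypoxia were 5 in female Cav1-KO (38.2% of all genes), 5 in male Cav1-KO (55.1%), 2 in male Control (16.0%) and 1 in male Cav1-RC (7.89%), the neighbours called in Cav1-KO 42 of 169 (16.9% of all genes), the proton pump genes 1 and the calls of source genes over the 4 Cav1-KO comparisons 10 (6 with it). With the blot-list term in the fit of all 34 libraries, which changes 2 choices at once, 0 members were called in female Cav1-KO, 0 in male Cav1-KO, 1 in male Control (Nxpe4) and 0 for the difference of the Cav1-KO effect between oxygen levels, and the hypoxia effects of Gm6969 (0.29 in females, 0.36 in males) and Gm9825 (0.18 and 0.28) turned direction, while that of Gm13443 grew to -2.51 and -2.70. That difference had 0 calls in female groups alone and 1 in male groups alone. Without libraries against the sex label, 1 member was called in male Control and 1 for the difference of the Cav1-KO effect between sexes, Gm10036 in both, and source genes had 3 calls in Cav1-RC in place of 5. With only animals not on the blot list, 5 members were apart between Cav1-RC and Control. That setting drops every male Control hypoxia library and female Cav1-RC normoxia replicate 1, among others. Fewer libraries overlap less easily, and the share of all genes apart in them was not computed. The blot-list term was estimated only from female groups with both listed and unlisted mice, none of them Cav1-KO. For Gm13443 these include the low library, female Cav1-RC normoxia replicate 2. The cause of these changes was not tested.

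With the replicate block, 1 member was called in female Cav1-KO in place of 2, Gm13443 falling to -0.96 (adjusted p = 0.0161). It changed no other count of calls by over 1.5 times, with 3 in male Cav1-KO, 3 for the difference between oxygen levels and 15 neighbours.

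With each copy summed with its source, the log2 fold change in Cav1-KO turned direction for Atp6v0c (0.72), Gm10036 (0.0152), Gm6969 (-0.00965), Gm9825 (-0.49) and Rbpj-ps3 (-0.72), and in Cav1-RC for Atp6v0c (0.97), Gm10036 (0.0362) and Gm9825 (-0.37).

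Leaving out 1 library at a time gave 0 to 1 members called for hypoxia in male Control (1 without hypoxia replicate 2), 1 to 2 in female Cav1-KO (1 without hypoxia replicates 1 or 3 or normoxia replicate 1), 2 to 4 in male Cav1-KO, 0 to 1 between sexes and for the difference of the Cav1-KO effect between sexes (1 without male Control hypoxia replicate 2), 1 to 4 for that between oxygen levels (1 without female Control normoxia replicate 1, female Cav1-KO hypoxia replicates 1 or 2 or normoxia replicate 1, or male Cav1-KO hypoxia replicate 3), 11 to 15 neighbours (11 without female Cav1-KO normoxia replicate 2), 5 to 9 calls of source genes in Cav1-KO (9 without female Control normoxia replicate 1) and 4 to 5 in Cav1-RC. Members past the thresholds in Cav1-KO against Control were 1 to 8 in normoxic females (1 without female Control normoxia replicate 2, 2 without either Cav1-KO library), 5 to 8 in hypoxic females, 8 in normoxic males and 4 to 7 in hypoxic males. Members apart were 7 for Cav1-KO and 3 to 4 for Cav1-RC.

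Counts of 0 to 21 per Control library limit the folds of 5 copies, and with 2 or 3 libraries a group and few distinct bases a pair, small shifts in read assignment could not be seen. In the tally of alternatives, 117 counts of calls or genes apart were marked as unchanged and 18 as moved. Of the single values, 397 were marked as unchanged, 19 as moved, 12 as reversed, 26 as stronger and 21 as weaker. A count with a small shift was still marked as unchanged, so the tally does not show that every call was kept.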
